A study of Mus musculus with 4 samples.

Results

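The regions described here are the m6A peaks of mouse spinal cord that lay in a 3′ UTR but over 1000 bp upstream of the 3′ end of their transcript. A peak was a member if the authors had annotated it to a 3′ UTR and if its nearer edge was over 1000 bp from the end of the annotated transcript, measured on the genome. The rule used position and annotation only, not peak strength. It took 8540 of 33556 peaks in the list from mice with chronic constriction injury (CCI) and 8389 of 34406 in the list from sham-operated mice, or 16929 of 67962 in all. These are called far peaks below, and the 3′ UTR peaks at most 1000 bp from the transcript end (8179 in CCI and 8421 in sham) are called near peaks.

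Both lists came from male C57BL/6J mice of 6 to 8 weeks whose spinal cord was taken 7 days after surgery. In CCI, a model of neuropathic pain, the sciatic nerve was tied loosely with silk. In sham mice the nerve was exposed and left untied. Poly(A) RNA from 50 μg of total RNA was fragmented, 1 library per group was made from the fragments that an m6A antibody pulled down (IP) and 1 from the fragments before the pull-down (input), and the number of mice behind each library was not given in the sources used here. No transgene or deletion is named for these mice, and a difference between lists is a difference between 1 pair of libraries per surgery, with no replicate check and no test between groups. Intervals below cover counting error only. The depth of the libraries is unknown, since the peak tables give no read totals. All 9 neuronal, 5 oligodendrocyte, 5 astrocyte and 5 microglial marker genes examined had a peak in both lists. Of 6 Schwann cell and dorsal root ganglion markers, 2 had a peak in CCI and 4 in sham, and Pmp22 and Calca had none in either. Of 4 markers of meninges and vessels, 3 had a peak in each list and Dcn had none.

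N6-methyladenosine is a methyl group on internal adenosines of mRNA. It is written by a complex built on Mettl3 and Mettl14 with the adaptor Wtap, can be removed by Fto and Alkbh5, and is read by YTH-domain proteins, which influence splicing, translation and decay of the message. In most tissues the mark is densest around the stop codon and in the 3′ UTR. Neurons are known for long 3′ UTRs, which carry the binding sites of microRNAs and RNA-binding proteins that steer messages to dendrites and axons, so that a peak can lie in a 3′ UTR and still be kilobases from the end of the transcript.

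MeRIP-seq locates a peak, not a base. The methylated adenosine itself usually sits in a short motif whose core is GGAC, most often GGACT. Stretches of a few far peaks could be read because a RefSeq promoter window of a neighbouring gene, on either strand, lay under the peak. They are shown 5′ to 3′ on the strand of the transcript, in build GRCm38.p6, with GGACT in capitals, so that the motif can be seen in place.
Lzts3, chr2:130635289-130635313, minus strand: tcagcttgagGGACTccttcggcag
Lzts3, chr2:130635403-130635427, minus strand: aacaactgaaGGACTctcaggccga
Lmln, chr16:33123740-33123764, plus strand: gtccacagtaGGACTgtgaagagtg
Pcif1, chr2:164891157-164891181, plus strand: cagactgctaGGACTcagcctcagg
Pcif1, chr2:164891194-164891218, plus strand: ggtggcagcaGGACTtgagctgcca
Cd276, chr9:58526168-58526192, minus strand: cttttccaatGGACTtaattcccat
The pair of sites in Lzts3, a postsynaptic scaffold gene, lay in a peak with a fold enrichment (IP over input, as the authors' peak caller gave it) of 17.3 in CCI and 25.0 in sham. The Lmln peak had a fold enrichment of 19.5 in CCI and 20 in sham. In Pcif1, which encodes the enzyme that methylates the adenosine next to the mRNA cap, the peak had 7.90 in CCI and 9.32 in sham, and in Cd276, an immune checkpoint gene, 8.24 and 10.9. A match is a description and not a mapped site. Of the RefSeq windows of 300 bases, 26.1% held GGACT and 65.6% held GGAC on their own strand, and of the 8 windows that lay wholly inside a far peak 2 held GGACT and 7 held GGAC on the strand of the transcript.

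Far peaks made up 25.4% of the CCI list (95% Wilson interval 25.0 to 25.9) and 24.4% of the sham list (23.9 to 24.8). They were 51.1% of the 3′ UTR peaks in CCI and 49.9% in sham. By gene name, 5015 of the 12408 genes with any peak in CCI had a far peak, which is 40.4%, and 5067 of 12907, or 39.3%, in sham. The gene names overlapped widely, with 4561 of 5521 in both lists. Of the genes with a far peak, 37.6% in CCI and 37.4% in sham also had a near peak.

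The distance to the transcript end had a median of 2503 bp in CCI (quartiles 1613 and 4703) and 2542 bp in sham (1589 and 4825). In CCI, 37.5% of far peaks lay 1000 to 2000 bp from the end, 39.2% lay 2000 to 5000 bp, 9.99% lay 5000 to 10000 bp, 10.1% lay 10000 to 50000 bp and 3.24% lay beyond that. Introns between the peak and the end count in this distance. Most far peaks were thus a few kilobases upstream, with a thin tail. Just inside and outside the threshold the peaks were alike in strength. CCI peaks 750 to 1000 bp from the end had a median fold enrichment of 4.61 and those in the next bin of the same width 4.46, and the sham medians were 4.78 and 4.66.

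**Figure D1:**
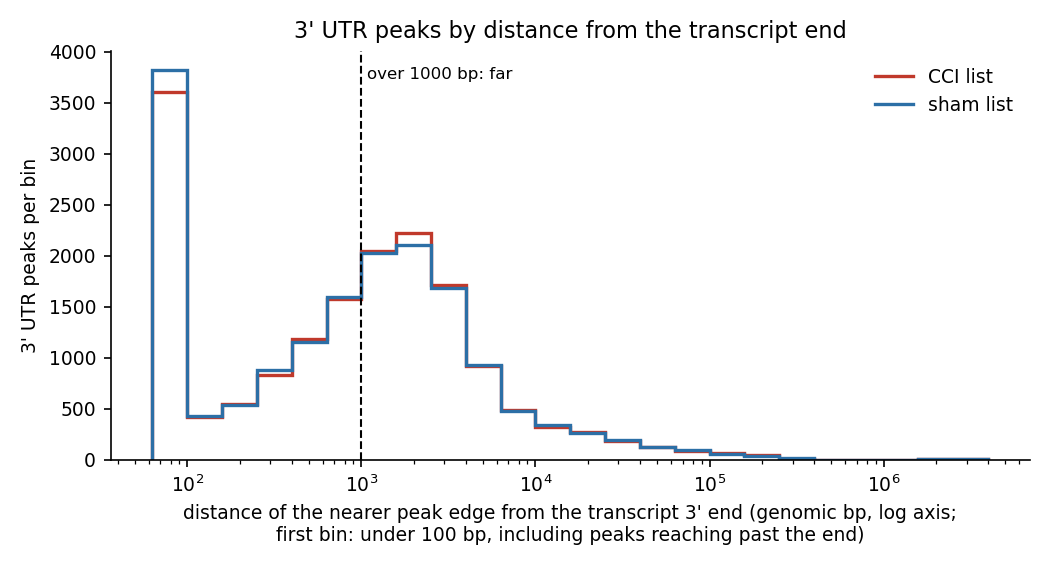
3′ UTR peaks of the CCI list (red) and the sham list (blue) by the distance of the nearer peak edge from the transcript end, in genomic bp on a log axis, with the number of peaks per bin on the y axis and a dashed line at 1000 bp. The first bin also holds the peaks that reach past the end. In both lists this tall bin is followed by a dip and then by a broad hump around the far peaks' medians of 2503 bp (CCI) and 2542 bp (sham). The bins widen with distance, so the hump is one of peaks per bin and does not show more peaks per bp there.

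Whether a peak is really far from an end depends on the transcript it was given. RefSeq gene spans of build GRCm38.p6 placed 7205 of the 8540 CCI members (84.4%) and 7061 of the 8389 sham members (84.2%) on the gene of their own name and on no other gene. A further 872 in CCI and 877 in sham lay on their own gene and on another, 352 (4.12%) and 356 (4.24%) lay on another gene only, and 111 and 95 lay on no RefSeq gene. The share on another gene only was 1.81% at 1000 to 2000 bp and 22.4% beyond 50000 bp in CCI. The end of a RefSeq gene is here that of its whole span, so the ends of its shorter transcripts do not enter the next comparison. Of the members on their own RefSeq gene, 94.0% in CCI and 94.1% in sham were also over 1000 bp from the end of that RefSeq gene, with median distances of 2425 and 2444 bp. The remainder include well-known genes. For Cx3cr1, the microglial fractalkine receptor, the table's transcript placed all peaks 147115 to 149322 bp from the end, while on the RefSeq gene they were 48 to 2195 bp from it in CCI and 227 to 2255 bp in sham. The peak of Ext1, a heparan sulfate polymerase gene, was 4277 bp from the table's end and 54 bp from RefSeq's. Another transcript of the same gene, among those the lists name, ended within 1000 bp of the peak for 598 CCI members (7.00%) and 558 sham members (6.65%). Only 3083 of the 8540 CCI members and 2958 of the 8389 sham members were of genes for which the lists name more than 1 transcript. For the other members no such end could be found, so these shares are of all members and not of those that could be checked.

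The gene names with the most far peaks show the same issue. Pcdhgc4 had 45 far peaks in CCI and 46 in sham and Pcdha11 22 and 15. They belong to the clustered protocadherins, adhesion genes whose many transcripts share their last exons, and the table repeats near-identical peaks over those exons under several transcripts. Merging overlapping members left 8150 distinct places in CCI and 8012 in sham, with up to 23 and 24 peaks in 1 place. Fgfr2, a fibroblast growth factor receptor gene, had 21 far peaks in CCI and 26 in sham, but its tabulated transcript spanned 2960900 bp and 19 and 23 of the peaks lay only on other genes such as Ate1, Chst15, Fam53b and Plekha1. All 12 CCI and 15 sham peaks named Glod4 lay on Gemin4. Of the 14 peaks in each list named Chrnb2, a nicotinic receptor subunit, 7 in CCI and 6 in sham lay on Adar only, the gene of an RNA-editing enzyme. Tbc1d17 had 10 and 11, of which 8 in each list lay only on Il4i1 or Il4i1b. Next in number were Ntrk3 with 13 and 10, Wiz with 7 and 12, Cdan1 with 9 and 10 and Gnao1 with 9 and 9. The names farthest from their end were Fgfr2 (2825590 bp), Lrp1b (2056620 bp), Macrod2 (1972640 bp), Anks1b (611120 bp) and Ccser1 (571920 bp). The Fgfr2 peak lay on Ctbp2 only, and the other four stood on large genes of their own name.

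Counted as distinct places on their own RefSeq gene only, 2834 of 4462 genes in CCI (63.5%) had 1 far place, 1027 had 2, 371 had 3 and 230 had 4 or more. The sham counts were 2942, 1032, 336 and 199 of 4509. Neighbouring places in a gene were a median of 389 bp apart in CCI and 417 bp in sham, and 70.5% and 69.8% of the gaps were at most 1000 bp.

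Gnao1, which encodes the G protein subunit that inhibitory receptors use in neurons, had the most such places, 9 in each list, between 1797 and 12468 bp from the end. Its strongest peak was the farthest one, at chr8:93954056-93956920 in CCI (fold enrichment 20) and chr8:93954026-93956920 in sham (21.7). Its other peaks had a fold enrichment of 1.86 to 9.75 in CCI and of 1.41 to 5.90 in sham. No Gnao1 pair differed by 2-fold, and the log2 ratios of CCI over sham ran from -0.12 to 0.72. The far peaks of Gnao1 were thus a string of peaks of very unequal height rather than an evenly marked stretch.

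**Figure D2:**
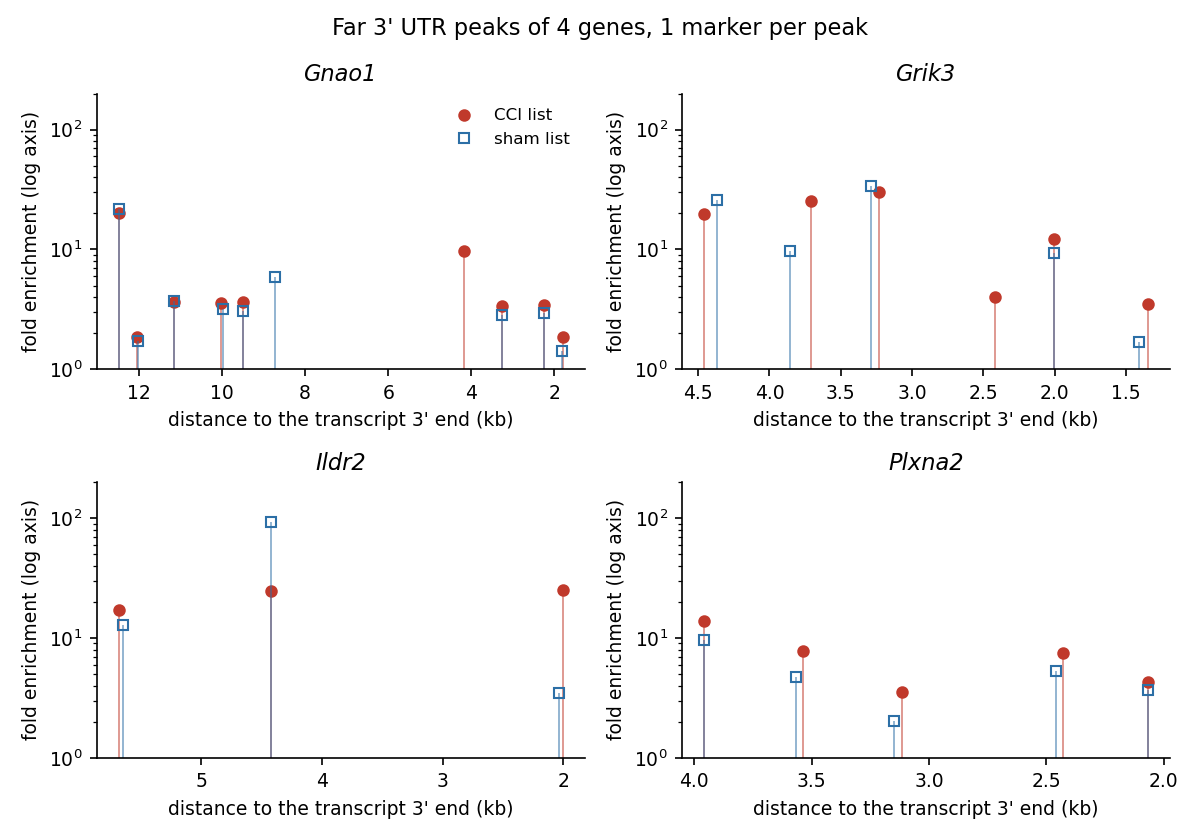
Far peaks of Gnao1, Grik3, Ildr2 and Plxna2, 1 marker per peak, by distance of the nearer edge to the transcript end in kb (x axis, end to the right) and fold enrichment on a log axis (y axis), filled red circles for the CCI list and open blue squares for the sham list. In Gnao1 the lists lie close together, and the pair of markers set far apart on the x axis is 1 pair of overlapping peaks, since the CCI peak runs across an intron. In Grik3 and Ildr2 some peaks are higher in CCI and others in sham, and the 5 Plxna2 peaks are all higher in CCI, by less than 2-fold.

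The fold enrichment of far peaks had a median of 5.05 in CCI (quartiles 2.85 and 10.1) and 4.98 in sham (2.76 and 10). Near peaks had medians of 7.10 (3.58 and 14.6) and 6.90 (3.49 and 14.7), and all peaks 5.72 and 5.70. A fold enrichment of 20 or more was reached by 8.78% of far and 17.2% of near peaks in CCI, and by 8.38% and 16.7% in sham. Length did not differ in the same way, with median exonic lengths of 241 and 240 bases for far and near peaks in both lists, nor did the deposited log10 false discovery rate, at -21.6 for far and -20.9 for near in CCI and -25.7 and -25.3 in sham. More than 1 exonic block, meaning that the peak crossed a splice junction, was listed for 19.2% of far and 12.5% of near peaks in CCI and for 20.4% and 13.7% in sham.

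Among the strongest far peaks, that of Epha5, an ephrin receptor gene of axon guidance, had a fold enrichment of 569 in CCI and 680 in sham, 11703 bp from the end. The peak of Tbkbp1, an adaptor of the innate immune kinase TBK1, had 567 in CCI and 132 in sham. Kmt2e had 550 and 99.8, and Ctif 332 and 81.9. The Kmt2e partner in sham carried another annotation and was no member. In sham, Ext1 led with 734 against 163 in CCI, followed among genes not yet given by Kat6a, a histone acetyltransferase, with 401 against 165, Marcks, a substrate of protein kinase C, with 378 against 298, and Ccdc6 with 363 against 203. The read counts behind these ratios are not in the tables used here.

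A peak found with both surgeries is a first check on a list made from 1 pair of libraries. Of the far peaks, 88.4% in CCI (87.7 to 89.1) and 88.0% in sham (87.3 to 88.7) overlapped a peak of the other list by at least 1 exonic bp. For near peaks the shares were 90.2% and 88.1%. The difference, far minus near, was -1.79 percentage points in CCI (95% Newcombe interval -2.72 to -0.85) and -0.0811 points in sham (-1.06 to 0.90). Over all peaks the shares were 87.7% and 83.9%. The best overlapping peak was itself a far peak in 95.2% of cases from CCI and 96.3% from sham.

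The far peaks without a partner, 990 in CCI and 1005 in sham, were weak. Their median fold enrichment was 2.56 in CCI and 3.05 in sham, against 5.54 and 5.30 for those with a partner. A log10 false discovery rate of -10 or lower was given to 82 of them in CCI (8.28%) and 70 in sham (6.97%), against 74.5% and 77.7% of those with a partner. Of the stronger ones in CCI, the peak named Lgi1, a secreted synaptic protein gene, had a fold enrichment of 35.4 but lay on Gm9886 only, and Shank1, a postsynaptic scaffold gene, had 18.9 over 61 bases. Others in CCI were Ampd3 with 12, on a stretch shared with Rnf141, and the calcium pump gene Atp2b4 with 10.9. In sham they included Ubn2 with 23.2, the kinase gene Wnk3 with 15.3 and Oprm1, the mu opioid receptor gene, with 10.8 at 129556 bp from the end. Pirt, a regulator of the heat channel TRPV1, had 15.9 in sham on a stretch shared with Gm12298. These list-only peaks were picked after their values were seen, and the lists give no value for a region below the caller's threshold.

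For the comparison of CCI with sham, each far peak was paired with the peak of the other list that overlapped it best, where the choice was mutual. This gave 6758 far pairs, 6837 near pairs and 27380 pairs in all. The log2 ratio of fold enrichment, CCI over sham, had a median of 0.07 over far pairs (quartiles -0.28 and 0.42), 0.06 over near pairs (-0.37 and 0.51) and 0.03 over all pairs (-0.37 and 0.43). These values are relative to the input of their own group, and a change in the total amount of m6A was not measured. In median fold enrichment the paired far peaks were close to equal after the injury and after sham surgery, and they spread less than the near pairs around that level. Far peaks found in 1 list only, or without a mutual far partner, have no ratio and are not part of this.

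At least 2-fold higher in CCI were 430 far pairs (6.36%, 5.81 to 6.97), where the share over all pairs was 8.59%. At least 2-fold lower were 272 (4.02%, 3.58 to 4.52), where the share over all pairs was 7.25%. In either direction 702 far pairs passed (10.4%, 9.68 to 11.1), against 15.8% of all pairs and 19.4% of near pairs. The difference between far and near was -9.02 percentage points (Newcombe interval -10.2 to -7.83). Far members were thus called less often than the background, in both directions.

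Peak strength moved with this difference. Among pairs with a mean fold enrichment (geometric mean of both lists) under 3, 2.11% of far and 2.37% of near pairs passed 2-fold, and from 3 to 5 the shares were 8.55% and 9.60%, with overlapping intervals. From 5 to 10 they were 12.8% (11.4 to 14.4) and 19.8% (18.0 to 21.7), from 10 to 20 they were 13.3% (11.4 to 15.3) and 26.0% (23.8 to 28.2), and from 20 up they were 22.4% (19.3 to 25.9) and 34.5% (31.9 to 37.1). In each of 4 classes of the false discovery rate, which together hold all far and near pairs, the far share was the lower, from 5.10% against 13.2% where the weaker peak of the pair had a log10 value of -50 or below to 19.9% against 29.1% above -5. Pairs with identical borders in both lists, 1313 far and 1602 near, passed in 5.94% and 16.3% of cases, and pairs with other borders in 11.5% and 20.4%.

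**Figure D3:**
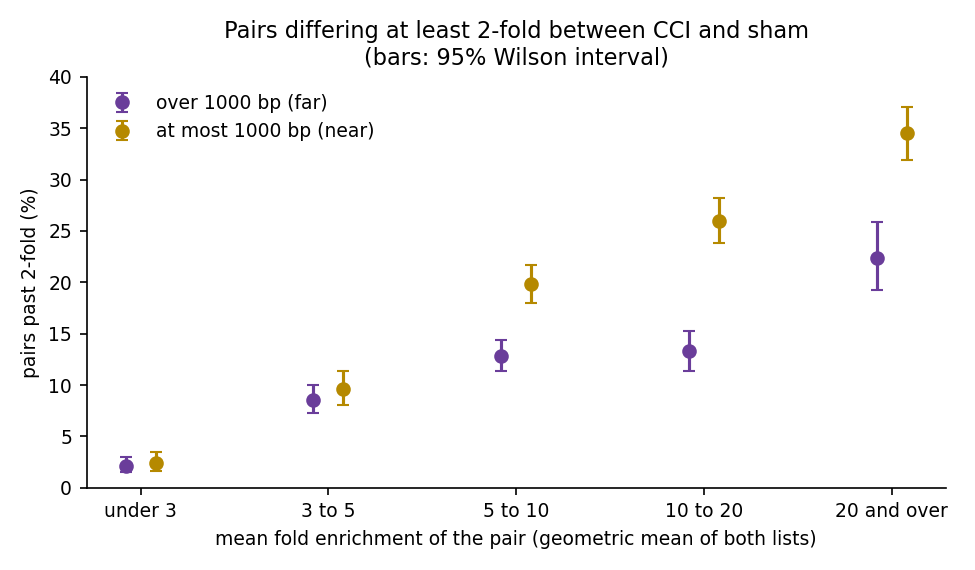
Share of paired peaks whose fold enrichment differed at least 2-fold between CCI and sham (y axis, %), by the mean fold enrichment of the pair (x axis, 5 classes), for far pairs (purple) and near pairs (ochre), with 95% Wilson intervals as bars. The classes lie together below a mean of 5 and separate above it, to 22.4% of far and 34.5% of near pairs at 20 and over.

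With a log10 false discovery rate of -10 or lower in both lists, 4762 far pairs remained, of which 230 (4.83%) were at least 2-fold higher in CCI and 141 (2.96%) at least 2-fold lower. Over all 17476 such pairs the shares were 6.86% and 5.34%. The pairs named next are the extremes of the 4762.

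Higher in CCI, the widest gap was in Pcsk1n, which encodes proSAAS, an inhibitor of the prohormone convertase of neuropeptide processing. Its peak had a fold enrichment of 514 in CCI (chrX:7923047-7923314) and 62.6 in sham (chrX:7923018-7923373), a log2 ratio of 3.04. Opa1, a mitochondrial fusion gene, had 26.6 and 3.44, 34088 bp (CCI) and 34355 bp (sham) from the end. The peak named 1700066B19Rik had 31.3 and 4.07 and lay on Ecscr only. Hipk2, a nuclear kinase gene, had 136 and 18.1, but the CCI peak covered 1349 exonic bases and the sham peak 870. Il4ra, the interleukin 4 receptor subunit gene, had 54.7 and 7.55 for a region that the sham list split into 2 peaks, of 7.55 and 9.30, while its 2 other far pairs were equal within a log2 ratio of -0.10. Ildr2 had 25.2 and 3.49, the cell motility gene Ccdc34 had 318 and 46.1 with identical borders on a stretch shared with Ccdc34os, and Hoxb13, a homeobox gene of the most caudal body, had 81.8 and 12 at 206 bp from its RefSeq end.

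Lower in CCI, the widest gap was in the peak named Spata2l, with 15.8 in CCI (chr8:123231354-123231802) and 650 in sham (chr8:123231324-123232250), a log2 ratio of -5.36. This region lay on Cdk10 only, and the CCI list had a further peak of 104 inside the part that the sham peak also covered. Crocc2 had 10.2 and 80.2. Pcdh1, a protocadherin gene outside the clusters, had 3.91 and 30.4, with the sham peak also over a neighbouring CCI peak of 25.6. Lnx2, a ubiquitin ligase gene, had 8.86 and 60.4, and Arpc1b, of the actin-nucleating Arp2/3 complex, 12.7 and 79.0. In each list the Arpc1b peak ran beyond the RefSeq gene's end, at distances of -67 bp (CCI) and -127 bp (sham). The Arpc1b peak was thus far by the tabulated transcript only. En2, a homeobox gene, had 10.6 and 63.6, and Zbtb49 4.79 and 23.6. Ext1 had 163 and 734 with identical borders, chr15:53068315-53068794 in both lists. Of the 16 extremes only Ccdc34 and Ext1 had the same start and end in both lists, so that for most of them the lists compared somewhat different stretches.

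**Figure D4:**
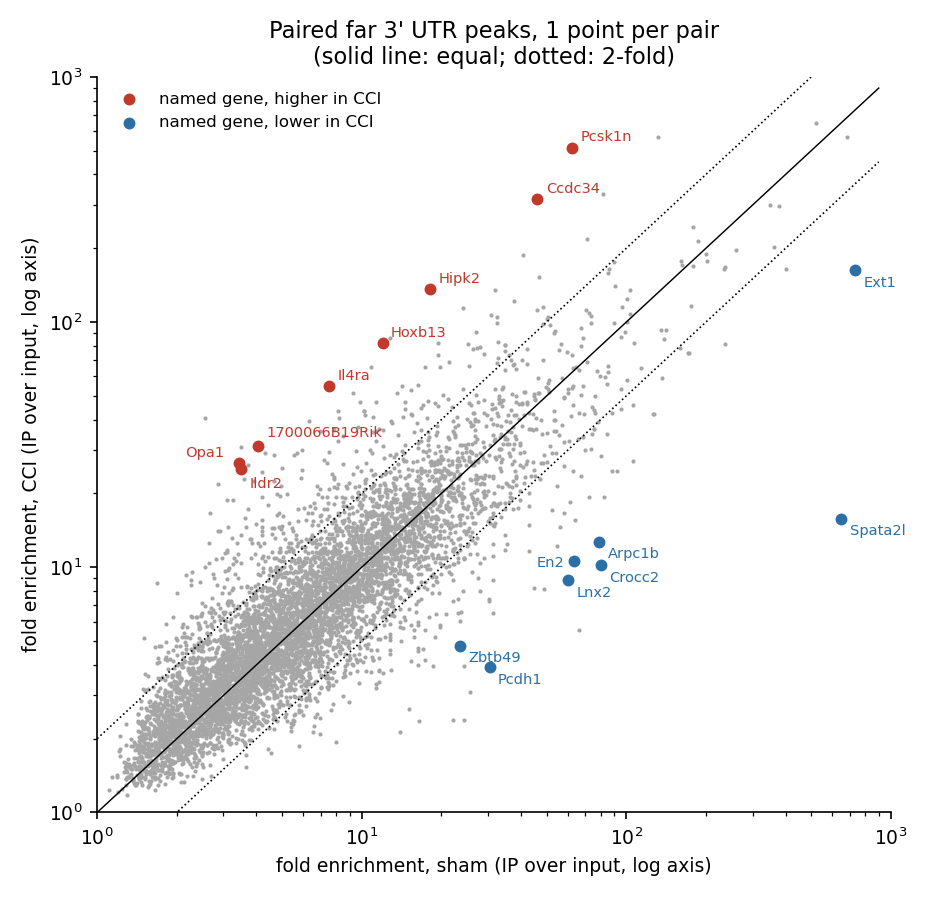
Fold enrichment of each far pair in sham (x axis) and CCI (y axis), both on log axes, 1 grey point per pair, with the line of equal values (solid) and of 2-fold differences (dotted). The 16 named pairs are coloured, red for higher and blue for lower in CCI, and most of the 6758 pairs lie between the dotted lines.

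Far pairs of the same gene often had ratios on different sides of 0. Of 1244 genes with 2 or more far pairs on their own RefSeq gene only, 504 (40.5%) had all log2 ratios on 1 side of 0 and 740 (59.5%) had them on both sides or at 0. The shares that unrelated ratios would give were not worked out, so whether far peaks of a gene move together was not tested. The gap between the highest and lowest log2 ratio of a gene had a median of 0.63. In 256 of these genes at least 1 pair passed 2-fold, in 7 all pairs passed in 1 direction and in 15 a pair passed in each direction. Ern1, the sensor of unfolded protein in the endoplasmic reticulum, was of the first kind, with 6.25 in CCI against 2.37 in sham and 41.7 against 15.5. Others were Deptor, Erf, Banp and Foxp1, higher in CCI, and Bcl7c and Entpd7, lower. Pairs were not merged by place here, and those of Foxp1, at 4194 and 4207 bp from the end in CCI, may not be separate places. The weaker Banp pair had log10 false discovery rates of only -1.99 in CCI and -1.98 in sham. Ildr2 was of the second kind, with a log2 ratio of 2.85 at 2003 bp and of -1.90 at 4424 bp from the end. In Grik3, a kainate receptor subunit gene, the ratio was 1.41 at 3708 bp and -1.22 at 2422 bp, where the sham peak spanned 808 bases and the CCI list held 2 peaks. Chst3, which sulfates chondroitin, had 12.6 against 3.84 at 3053 bp and 42.2 against 127 at 3922 bp. Trim2, a ubiquitin ligase gene, had 15.4 against 5.73 and 3.53 against 7.71. Over the 1320 genes with both kinds of pair, the median far and the median near log2 ratio correlated weakly across genes (Pearson's r 0.05, Spearman's rho 0.06), all points resting on the same 4 libraries.

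Far peaks were unequally spread over gene groups, each group a fixed list of genes. Of all 13554 gene names with a peak in either list, 5521 had a far peak, which is 40.7%, and the counts of genes are to be read against this share. The counts of pairs past 2-fold in each group are to be read against the 8.59% of all pairs that were higher and the 7.25% that were lower in CCI, and against the 6.36% and 4.02% of all far pairs. The lengths of the 3′ UTRs were not compared, and no group was tested.

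Among genes of axon guidance, 29 of 33 had a far peak (87.9%), and they held 54 far pairs with a median log2 ratio of 0.17, of which 2 were 2-fold higher and 2 lower in CCI, beside 8.59% and 7.25% of all pairs. Plxna1, a semaphorin co-receptor gene, had 6 far peaks in each list with fold enrichments of 2.30 to 3.19 in CCI and 1.80 to 3.46 in sham. Plxna2 had 5 in each list, up to 13.8 in CCI and 9.53 in sham. The netrin receptor gene Unc5c had a strong peak 6148 bp from the end, with 41.3 in CCI and 32.7 in sham. Epha7, just past 2-fold, had 35.7 and 17.8. The netrin gene Ntn1 had 4.09 and 10.1, and the ephrin gene Efnb1 9.10 and 19.

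Among voltage-gated ion channels, 28 of 33 had a far peak (84.8%), with 55 far pairs and a median log2 ratio of 0.17. Of these pairs 4 were 2-fold higher in CCI and none lower, shares that stand beside 8.59% and 7.25% of all pairs. The sodium channel gene Scn3a, which is expressed mostly in early life, had 31.4 in CCI and 14.6 in sham at 3055 and 3025 bp from the end. Kcnb2 had 10.9 and 2.96, and Kcnq5, of the M current, a highest ratio of 1.47. The sodium channel gene Scn8a had 18.4 and 15.9 in its strongest far peak, and Scn9a, the pain-related channel of sensory neurons, 11.2 and 9.44. The Scn9a peak lay on Scn9a and on another RefSeq gene.

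Of the neuronal RNA-binding and miRNA-pathway genes, 29 of 36 had a far peak (80.6%), with 42 far pairs, a median log2 ratio of 0.05, 1 pair higher and 1 lower. Nova2, a splicing regulator, had 7 far peaks in CCI and 9 in sham, several of them near-duplicates, and held both of these pairs. The peak of 29.0 in CCI against 13.5 in sham had a log2 ratio of 1.10, and that of 34.9 against 74.4, which lay on Nova2 and on Gm38952, a ratio of -1.09. Elavl3, which binds AU-rich elements, had 47.0 and 38.4 in its strongest far peak. Tnrc6a, a partner of Argonaute, had 18.4 and 15.5, and Ago2, the slicing Argonaute, up to 17.4 and 16.0.

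At synapses, 13 of 22 glutamate receptor genes had a far peak (59.1%), with 2 of 19 pairs higher and 1 lower, all 3 in Grik3. Grin2b, an NMDA receptor subunit gene, had far peaks up to 21.9 in CCI and 4.65 in sham. The CCI peak of 21.9 was in none of its 3 far pairs, whose ratios ran from -0.20 to 0.89. The AMPA receptor gene Gria1 had ratios of -0.37 to -0.12. Of genes of GABA and glycine inhibition, 14 of 22 had a far peak (63.6%) and none of the 20 pairs passed 2-fold. Gabra2 had 47.3 and 27.4, and Slc6a5, the glycine transporter of inhibitory neurons, up to 19 and 14.5. Postsynaptic scaffolds, neurexins and neuroligins had far peaks in 18 of 25 genes (72.0%), with 1 of 28 pairs higher and none lower. Nlgn2, an organiser of inhibitory synapses, had 62.8 and 85.2, and Shank3 97.0 and 51.5, with a ratio of 0.91.

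Among sensitisation kinases and phosphatases, 21 of 33 had a far peak (63.6%), and 1 of 27 pairs was higher in CCI, in Prkca, a protein kinase C gene, with a ratio of 1.01. Prkce had 2 far peaks in each list, of 23.3 and 24.9 in CCI and 18.4 and 44.7 in sham. The neurotrophin and growth factor group had far peaks in 18 of 25 genes (72.0%), and 3 of 55 pairs were higher and 7 lower, but 21 of the 55 pairs were named Fgfr2. These included all 3 higher and 4 of the 7 lower, none of which lay on Fgfr2 itself. Ntrk2, the BDNF receptor gene, had 8.85 and 4.68 at 2906 bp from the end and a stronger peak of 22.4 and 16.3 at 242003 and 242063 bp, with weak peaks of 1.69 to 2.38 between them. Ntrk3, the receptor gene of neurotrophin 3, had 3.21 and 3.06 at 125634 bp, and its pairs of 4.17 against 11 and 2.18 against 4.65 were 2 of the lower ones. The last was in Igf1r, with 2.87 against 6.38. Ntrk2 and Ntrk3 are known to make truncated receptors from shorter transcripts. Of transcription factors of cord and injury response, 22 of 39 had a far peak (56.4%), with 1 of 33 pairs higher and 2 lower. All 3 were named Nfix, with 51.6 against 13.6 for the pair that was higher, and of the lower ones 1 lay on Lyl1 only. The far peaks that lay on Nfix itself were 60 to 3383 bp from its RefSeq end in CCI and 0 to 3383 bp in sham.

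In glia the counts differed by cell type. Of astrocyte genes 11 of 17 had a far peak (64.7%), and none of 14 pairs passed 2-fold. The glutamate transporter gene Slc1a2 had up to 4.96 and 2.96, and the water channel gene Aqp4 9.46 and 9.76. The Aqp4 peak lay on Aqp4 and on another RefSeq gene. Of oligodendrocyte and myelin genes 11 of 18 had one (61.1%). Cnp had 34.9 and 84.8, a ratio of -1.28 and the only pair of 13 in that group past 2-fold. This region, 8702 bp (CCI) and 8732 bp (sham) from the end of the tabulated transcript, lay on Cnp and on Dnajc7, and the lists do not tell which gene its reads came from. Of microglia and complement genes 4 of 17 had one (23.5%), among them Cx3cr1, with a peak of 135 and 103, Tlr4, the endotoxin receptor, with 12.5 and 26.7, and Irf8 with 5.47 in CCI only. Without Cx3cr1, whose peaks reach within 48 bp of the RefSeq end, 3 of these genes remain. The Tlr4 pair, with a ratio of -1.09, was the only 1 of 6 pairs in that group past 2-fold. Markers of these cell types were examined in bulk cord, where fewer cells of a type and less RNA per cell cannot be told apart.

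Metalloproteinases and their inhibitors had far peaks in 16 of 22 genes (72.7%), with 22 pairs, a median log2 ratio of -0.01, 2 pairs higher and none lower. The higher ones were Mmp16, a membrane-type metalloproteinase, with 32.8 and 8.13, and Adamts5, an aggrecanase, with 35.7 and 11.0. Mmp24, another membrane-type member, had 1 far pair on identical borders, chr2:155816368-155816577, 1789 bp from the end, with 4.07 in CCI and 3.86 in sham, a log2 ratio of 0.08. A second sham far peak at 2296 bp had 12.1 and overlapped a CCI peak of 9.10 that was annotated outside the 3′ UTR, a ratio of -0.41. Mmp17 had 4 far peaks in CCI and 6 in sham, from 1.92 to 8.64, with ratios of -0.84 to 0.57. Of the m6A machinery itself, 5 of 16 genes with any peak had a far peak (31.2%), and none of 6 pairs passed 2-fold. Ythdc1, the nuclear reader, had 8.39 and 4.85 in its strongest CCI peak, Wtap 8.79 and 11.3 in the stronger of its pairs, and Fto 5.35 and 4.00. At the other end, 2 of 16 cytosolic ribosomal protein genes, which have short 3′ UTRs, had a far peak (12.5%), Rps3 with 2.57 in CCI and 2.01 in sham at different places and Rpl11 with 5.09 in sham only. The Rpl11 peak was 595 bp from its RefSeq end.

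**Figure D5:**
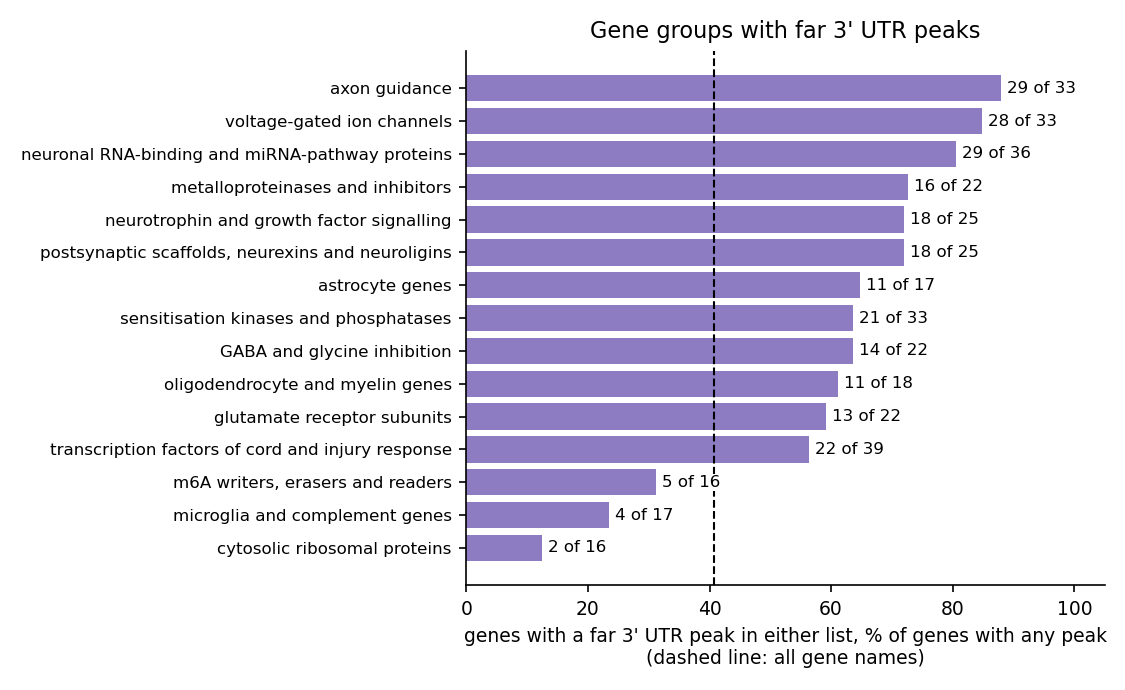
Share of genes with a far peak in either list among the genes of each group that had any peak (x axis, %), 1 bar per group with the counts beside it, and a dashed line at the 40.7% of all gene names. Axon guidance genes, ion channels and RNA-binding proteins lie farthest above the line, and m6A machinery, microglial and ribosomal protein genes below it.

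Of the mature miRNAs in RefSeq, 1 lay inside a far peak, mmu-miR-2139 in a sham peak of Klhdc7a with a fold enrichment of 37.1, 5054 bp from the end. The overlapping CCI peak had 46.2 and carried another annotation. The mature sequence is given with its seed, bases 2 to 8, in capitals, to show what the peak covers.
mmu-miR-2139, chr4:139967531-139967554, minus strand: aGCUGCGCugcuccugguaacugc
Libraries of poly(A) RNA fragments do not tell a hairpin from its host message.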

How the data were processed

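Per the labels and the study's methods, m6A-bound and input poly(A) RNA of CCI and sham spinal cord was sequenced from strand-marked libraries, 1 IP and 1 input library per group. The submitters' processing notes name fastp, HISAT2, HOMER, ChIPseeker and build GRCm38, while the study's methods name Cutadapt, bowtie and MACS2. The deposited lists, called by the authors from the IP and input library of a group, give fold enrichment as a ratio of IP over input and the log10 false discovery rate as a score. A further table of the authors' own comparison (fold changes and p-values between CCI and sham) was not used.

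Far peaks were found by the stated distance of 1000 bp. Peaks were paired by mutual best exonic overlap (Jaccard index) and called at 2-fold, and Wilson and Newcombe intervals were at 95%. RefSeq gene spans, promoter windows and miRNAs of GRCm38.p6 were matched by symbol, identifier or position: 8438 of 8540 CCI and 8278 of 8389 sham members had their gene in RefSeq. With 1 library per group no test was run. The scripts were tested on simulated data. Python 3.11.15, numpy 2.4.6, pandas 2.3.3 and scipy 1.17.1 were used.

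Members and gene lists were chosen with earlier results of these data known. Named genes were the 10 with the most far peaks, the 8 strongest far peaks of each list and the 8 highest and 8 lowest pairs (1 per gene), all at a log10 false discovery rate of -10 or lower, the 5 farthest names, the 4 genes with the most far peaks in each list of genes, and Mmp24. Other group members, list-only peaks, genes with several pairs and printed motif sites were chosen after their values were seen. Some of these genes are not reported here.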

Additional observations from a re-analysis of the deposited data

How the results depend on the processing

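The alternatives gave 57 values, of which 30 stayed within the 95% interval of the reported one and 27 left it. Only the median log2 ratio could change sign, since shares and fold enrichments cannot, and it did so under none of its alternatives. With the distance set at over 500 bp, far peaks were 32.3% of the CCI list and 31.0% of the sham list, and at over 2000 bp 15.9% and 15.3%, with a CCI median fold enrichment of 5.29. Measured from the middle of the peak the shares were 28.7% and 27.8%, by gene names 40.4% and 39.3%, and for members on their own RefSeq gene only, an alternative chosen after seeing the data like that of 1 peak per distinct place, 22.4% and 21.3%. Among peaks with a log10 false discovery rate of -5 or lower the shares were 27.2% and 26.5%, the shares with a partner 90.8% and 89.6%, and the median fold enrichments 5.71 and 5.58. One value per gene gave medians of 5.63 and 5.55. A fold enrichment of at least 2 gave a sham share of 23.7% and a CCI partner share of 86.8%. Asking for an overlap of 50% of both peaks left a partner to 78.4% in CCI and 79.1% in sham, and 3.43% of far pairs at least 2-fold lower. With -5 or lower in both lists, 5.37% of far pairs were higher and 3.35% lower. Centred on the median of all pairs, the median log2 ratio was 0.04. The planned search of whole peaks for GGAC or GGACT, also in their middle 100 bases, was not run, since no genome was used here.

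No paired analysis was possible because the groups hold a lone IP library and a lone input library apiece. Leaving out a replicate was not possible either, and the spread between animals is not measured.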

Other observations

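The strand of the transcript differed between the classes of 3′ UTR peak. Of far peaks, 49.8% in CCI (95% Wilson interval 48.7 to 50.8) and 49.7% in sham (48.6 to 50.8) were on plus-strand transcripts. Of near peaks the shares were 58.2% (57.1 to 59.3) and 57.5% (56.4 to 58.5), and of peaks annotated to exons 52.7% and 51.9%. Near peaks reached past the end of their transcript in 9.98% of cases in CCI and 10.2% in sham.

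Of the far pairs, 891 were made of peaks that overlapped more than 1 peak of the other list, and 14.3% of them passed 2-fold, against 9.80% of the 5867 pairs in which each peak overlapped 1 other. Near pairs did not show this order, with 18.1% of 991 against 19.6% of 5846.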
